A study of Homo sapiens with 44 samples.

Results

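The insulin-like growth factor genes IGF1 and IGF2 and the genes of the 7 IGF-binding proteins, IGFBP1 to IGFBP7, were chosen by their gene symbols as 1 family. The rule used symbols and no values, but earlier results of these data were known when the family was chosen. All 9 were among the 40663 symbols of the count table. Of these, 7 (IGF1, IGF2, IGFBP3, IGFBP4, IGFBP5, IGFBP6 and IGFBP7) passed the filter on low counts, which left 9513 genes for testing, and each of the 7 had counts in all 44 libraries. IGFBP1 and IGFBP2 did not pass it and were described by their counts alone.

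Bulk RNA was sequenced from Ccd-18Co, a line of fibroblasts grown from human colon. They formed 11 groups of 4: unstimulated cells and cells stimulated for 24 h with the interferons IFNα or IFNγ, with TNF, TGF-β1 or oncostatin M (OSM), or with the interleukins IL-1β, IL-6, IL-13, IL-17A or IL-22. Per the study's methods all cells, unstimulated ones included, had 72 h without serum first, and per the labels each cytokine was used at 10 ng/ml except IL-1β at 0.1 ng/ml, for which another passage of the study gives a lower dose. The comparisons ask which transcripts of intestinal stromal cells each cytokine changes, and all of them share the same 4 unstimulated libraries. All groups came from 1 cell line, and nothing in the labels says that the replicates were separate cultures, so p-values measure only the spread between these libraries, which may be technical.

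IGF-I and IGF-II are secreted growth factors that act through the receptor IGF1R and drive growth, survival and matrix production of stromal cells. Most of either factor outside cells is held by binding proteins, of which IGFBP1 to IGFBP6 bind with high affinity and IGFBP7 with low affinity, and which carry the factors, keep them from the receptor or hold them near the cell surface and matrix. Proteases such as pappalysin-1 (PAPPA) cut binding proteins and free the factor, and the stanniocalcins STC1 and STC2 inhibit pappalysins. Mesenchymal cells of the gut wall are known sources of IGF-I and of several binding proteins.

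Library totals ran from 742173 to 2213424 estimated counts, with a median of 1480883, and levels are given as CPM, estimated counts scaled to the same normalized size in every library, as mean ± SD of the 4 libraries of a group. A count of 3 in a library, the limit of measurement used here, was worth 1.39 to 3.85 CPM and covers counting error only. All 9 fibroblast markers examined were measured, with a summed mean of 24700 to 45700 CPM by group. Of the markers of other cells, 4 of 5 smooth muscle markers were measured (summed mean 291 to 793 CPM, with DES, their defining intermediate filament, at 4 counts at most and the highest ACTG2 with TGF-β1), 1 of 5 epithelial markers (VIL1, summed mean 7.45 to 18 CPM, with EPCAM and CDX2 at 1 count at most), 1 of 4 immune markers (CD68, from 1.61 CPM to 59.1 CPM with IFNα, with CD3E and CD79A at 0) and 0 of 7 endothelial and glial ones. Their part in the results was not tested. In bulk RNA, fewer cells making a transcript and less of it per cell cannot be told apart.

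Of the 70 pairs of a tested member and a cytokine, 4 were called higher and 13 lower than in unstimulated cells by edgeR's quasi-likelihood test at a Benjamini-Hochberg adjusted p under 0.05, and 53 were not called. This was 24.3% of the pairs, beside 5.45% of the pairs of any tested gene and a cytokine. The calls fell on IGF1 (3 cytokines, all lower), IGFBP3 (6 lower and 1 higher), IGFBP4 (3 higher) and IGFBP5 (4 lower), while IGF2, IGFBP6 and IGFBP7 had none. Of the 17 calls, 4 also passed the absolute log2 fold change of 1.5 that the study used, namely IGF1 with IFNγ and with TNF, IGFBP3 with IL-13 and IGFBP5 with TNF. Those of IGF1 did not pass 1.5 when the counts of HELLPAR, an overlapping gene described below, were added to its own. Of all tested genes, 4.19% passed both thresholds with TNF, 3.53% with IFNγ and 1.47% with IL-13. The shares were 3.98% with IFNα, 2.78% with IL-1β, 1.7% with TGF-β1, 1.3% with OSM, 0.452% with IL-17A, 0.0105% with IL-6 and 0% with IL-22, where no member passed both.

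TNF lowered 3 of 7 members, IGF1, IGFBP3 and IGFBP5, in a comparison that called 11.5% of all tested genes (5.37% higher and 6.09% lower). IL-1β lowered 3 members, IGF1, IGFBP3 and IGFBP5, beside 7.38% of all tested genes called (3.46% higher and 3.92% lower). IFNγ lowered 2 members, IGF1 and IGFBP3, beside 10.6% of all tested genes called (5.52% higher and 5.13% lower). With IL-13, 2 members were lower, IGFBP3 and IGFBP5, beside 3.93% of all tested genes called (1.53% higher and 2.4% lower).

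IFNα raised IGFBP4 and lowered IGFBP5, beside 9.85% of all tested genes called (4.99% higher and 4.86% lower). IL-17A and OSM each raised IGFBP4 and lowered IGFBP3, beside 1.52% of all tested genes with IL-17A (0.599% higher and 0.925% lower) and 3.96% with OSM (1.42% higher and 2.54% lower). TGF-β1 raised IGFBP3 alone among the 7, beside 5.69% of all tested genes (2.61% higher and 3.08% lower). IL-6 called 0 members and 0.0105% of all tested genes, and IL-22 called 0 members and 0% of all tested genes. At an unadjusted p under 0.05, edgeR found 0 members for IL-6 and 1 for IL-22, IGFBP3, and DESeq2 called 0 for both after adjustment. The median log2 fold change of the 7 members was lowest with IL-1β (-0.86, beside -0.01 over all tested genes) and IL-13 (-0.67, beside -0.05) and highest with IL-17A (0.25, beside -0.02).

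**Figure D1:**
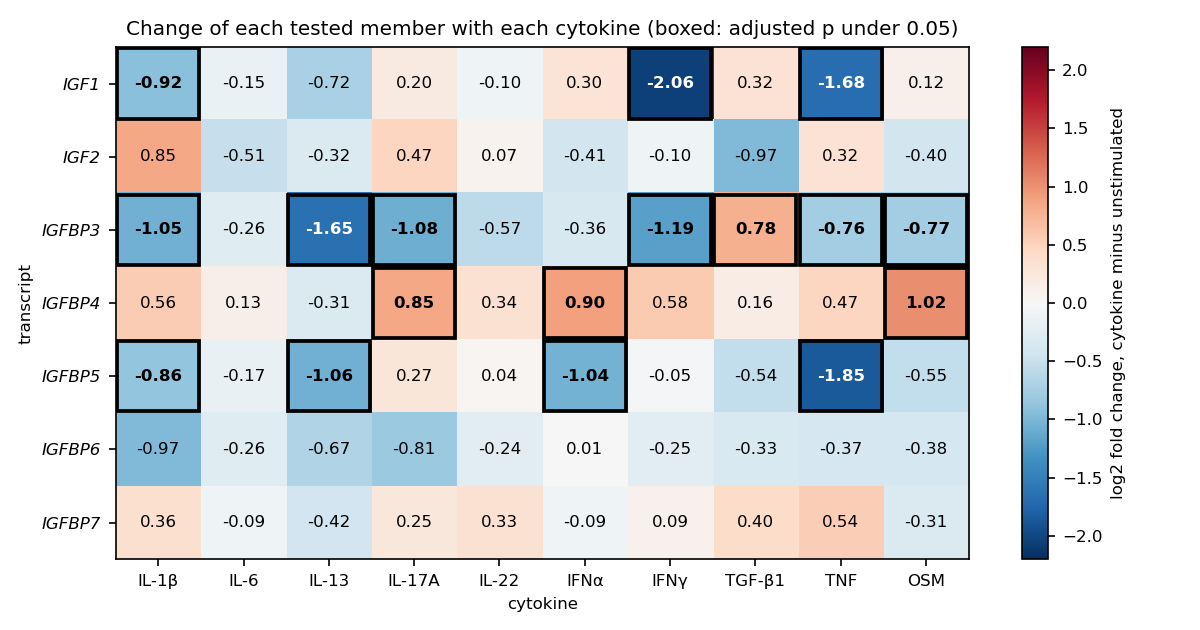
Log2 fold change of each of the 7 tested members (rows) with each of the 10 cytokines (columns) against unstimulated cells, n = 4 libraries a group, with red for higher and blue for lower. Black boxes mark an edgeR adjusted p under 0.05: 13 of the boxed values are negative and 4 are positive, and the IL-6 and IL-22 columns hold none.

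Levels of different genes were compared per kb of the annotated main transcript (MANE Select). In unstimulated cells IGFBP5 was the most abundant member at 377 ± 97.6 CPM per kb, followed by IGFBP3 (136 ± 11.2) and IGFBP7 (127 ± 17.6), which overlapped, then IGFBP6 (48.8 ± 31.3) and IGFBP4 (47.0 ± 14.3), which also overlapped. IGF1 lay at 23.1 ± 5.52 CPM per kb and IGF2 at 3.11 ± 0.528. By these counts, transcripts of the growth factors were scarcer than those of 5 of the binding proteins. By group mean, IGFBP5 ranked first in every group but TNF, where IGFBP7 stood at 185 ± 68.1 and IGFBP5 at 105 ± 12.1 CPM per kb, without overlap of their libraries. With TGF-β1 the means of IGFBP5 (259 ± 125) and IGFBP3 (235 ± 76.4) overlapped, and in replicates 1 and 2 IGFBP3 was the higher, at 321 against 153 and 277 against 169 CPM per kb. By the counts as given, IGF1 ranked 6 of 9 in all 11 groups. Reads of IGF1 may not be separable from those of HELLPAR, an overlapping gene described below, at 229 ± 30.2 CPM in unstimulated cells. Levels of IGF1 with the HELLPAR counts added were not ranked, so its rank is uncertain.

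The sum of the 7 binding protein transcripts was 736 ± 75.2 CPM per kb in unstimulated cells (lowest 674, highest 832). It was 388 ± 38.5 CPM per kb with IL-13 and 475 ± 73.9 with TNF, and all libraries of both groups lay below the unstimulated ones. The libraries with IL-1β (532 ± 73.8), IFNα (549 ± 22.0) and OSM (575 ± 46.5) also lay below them. The sums with IL-6 (663 ± 54.4), IFNγ (673 ± 99.3), IL-22 (741 ± 73.8), TGF-β1 (754 ± 54.3) and IL-17A (786 ± 49.1) overlapped the unstimulated ones. Being a sum over members, it was given no test.

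The make-up of that sum also differed between the groups, and was not tested. A share depends on the levels of the other members as well as on its own. IGFBP5 made up 50.6 ± 8.74% of the sum in unstimulated cells and 22.4 ± 3.82% with TNF, where IGFBP7 made up 38.2 ± 8.5% in place of 17.3 ± 1.33%. The level of IGFBP7 itself was not called with TNF (edgeR adjusted p = 0.0558), while that of IGFBP5 was called lower. The share of IGFBP3 was 18.7 ± 3.19% in unstimulated cells, 31.3 ± 10.9% with TGF-β1 and 8.26 ± 0.708% with IL-17A. IGFBP4 made up 6.52 ± 2.42% in unstimulated cells and 16.8 ± 1.96% with OSM.

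**Figure D2:**
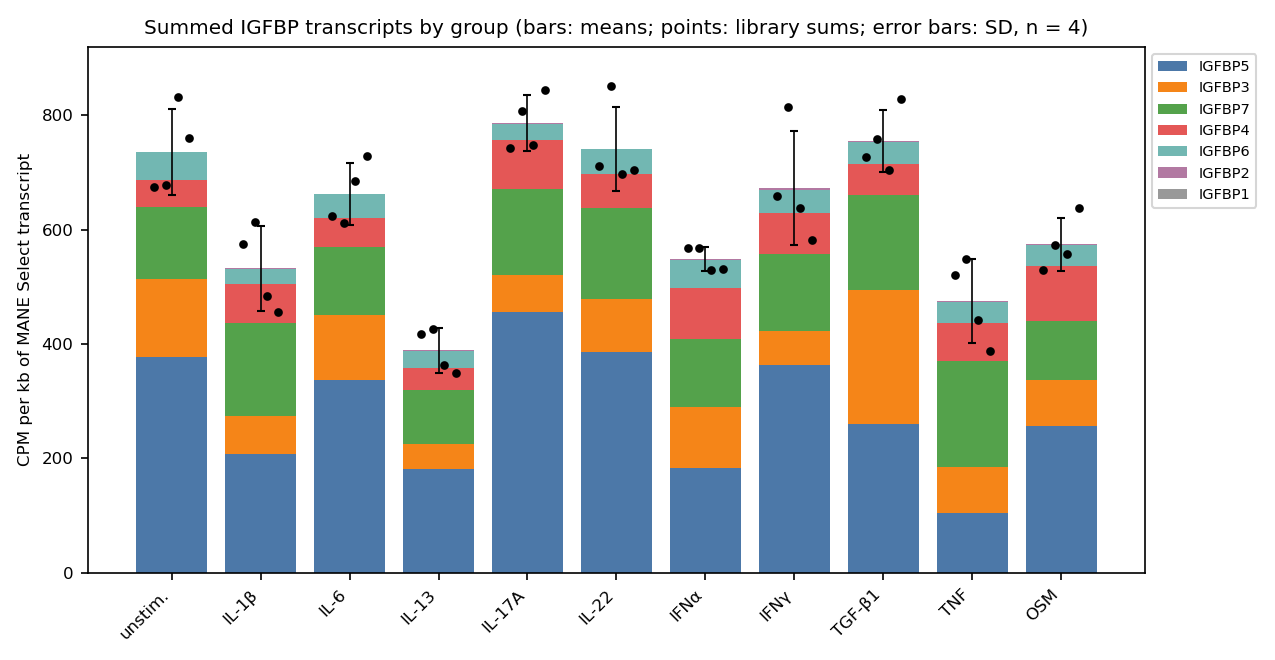
Stacked bars give the mean level of the 7 binding protein transcripts in CPM per kb of main transcript by group, black points the summed level of each of the 4 libraries, and error bars the SD of that sum. The IL-13 and TNF sums (388 and 475 CPM per kb) are the lowest, and the IGFBP5 segment is shortest with TNF.

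IGF1, the gene of the circulating and tissue growth factor IGF-I, lies on the minus strand of chromosome 12 at 102395874 to 102481744 (GRCh38, GENCODE release 44), with a main transcript of 4 exons and 7277 bases. It has 2 windows in the RefSeq promoter table, upstream of its alternative first exons. They are printed here, as the 250 bases before each start on the minus strand (GRCh38.p14, chr12:102481748-102481997 and chr12:102478551-102478800), because IGF1 had the largest fall of any member by the counts as given, without those of HELLPAR. No letters are in capitals, since none of the motifs searched was found in them.
IGF1 window 1: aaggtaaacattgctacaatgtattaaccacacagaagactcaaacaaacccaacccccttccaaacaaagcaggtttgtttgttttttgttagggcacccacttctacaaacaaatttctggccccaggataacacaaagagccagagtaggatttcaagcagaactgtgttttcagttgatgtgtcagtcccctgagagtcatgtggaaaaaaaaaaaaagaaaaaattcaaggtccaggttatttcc
IGF1 window 2: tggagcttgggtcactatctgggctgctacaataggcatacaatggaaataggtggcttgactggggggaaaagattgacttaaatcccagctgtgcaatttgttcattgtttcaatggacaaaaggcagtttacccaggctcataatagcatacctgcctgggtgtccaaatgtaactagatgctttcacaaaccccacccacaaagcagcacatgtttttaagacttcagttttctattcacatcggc

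IGF1 stood at 172, 125, 153 and 221 CPM in the unstimulated libraries (168 ± 40.2). With IFNγ the libraries gave 43.7, 62.3, 26 and 29.2 CPM (40.3 ± 16.6), all below every unstimulated one. This was a 4.16-fold lower level (log2 fold change -2.06 ± 0.24 SE, edgeR adjusted p = 6.53e-09).

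TNF gave 65.7, 32.7, 57.8 and 52.5 CPM of IGF1 (52.2 ± 14), which also lay wholly below the unstimulated range. IGF1 was 3.2-fold lower with TNF (log2 fold change -1.68 ± 0.23 SE, edgeR adjusted p = 4.82e-07). IL-1β gave 101, 109, 71.2 and 72 CPM, again all below, and a smaller fall (1.89-fold, log2 fold change -0.92 ± 0.22 SE, edgeR adjusted p = 0.00356). Among these 3 lowest groups, TNF and IFNγ were not told apart (log2 difference 0.38 ± 0.24 SE, edgeR adjusted p = 0.437, with 8.01% of all tested genes called), and IL-1β lay above TNF without overlap but not past the threshold (0.76 ± 0.23 SE, adjusted p = 0.0989, with 1.15% of all tested genes called).

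With IL-13, IGF1 was at 75.7, 85.7, 138 and 108 CPM, and 1 library lay inside the unstimulated range. The difference just missed the threshold (log2 fold change -0.72 ± 0.22 SE, edgeR adjusted p = 0.0514), and passed it with DESeq2 (adjusted p = 0.0308). The highest means were those with TGF-β1 (209 ± 14.4 CPM), IFNα (207 ± 28.1) and IL-17A (193 ± 24.4), followed by OSM, unstimulated cells, IL-22 and IL-6 (152 ± 38.8). None of the 10 neighbouring pairs in the order of the 11 group means differed past the threshold. Both interferons were in the comparison, at opposite ends of this order, IFNα second and IFNγ last. IGF1 with IFNα was not called against unstimulated cells, and the libraries overlapped (log2 fold change 0.3 ± 0.21 SE, edgeR adjusted p = 0.467).

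IGF1 shares exonic sequence with another gene. HELLPAR, a long non-coding RNA gene of 205012 bases on the plus strand (chromosome 12, 102197585 to 102402596), covers 6693 exonic bases of IGF1, which is 92% of its main transcript. The sources used here do not say whether strand was used in counting, and without strand the reads of these genes cannot be told apart in the shared part. HELLPAR was at 229 ± 30.2 CPM in unstimulated cells, 106 ± 52.1 with IFNγ, 114 ± 23.4 with TNF and 143 ± 26.2 with IL-1β. With the counts of both genes added together, the log2 fold change for IGF1 was -1.41 with IFNγ, -1.23 with TNF and -0.77 with IL-1β (edgeR adjusted p = 1.11e-06, 1.61e-05 and 0.0073). The 3 calls thus held at an adjusted p under 0.05, with smaller sizes. Neither IFNγ nor TNF then passed the study's absolute log2 fold change of 1.5. The fall with IFNγ was then also smaller than those of IGFBP5 with TNF (-1.85) and IGFBP3 with IL-13 (-1.65).

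**Figure D3:**
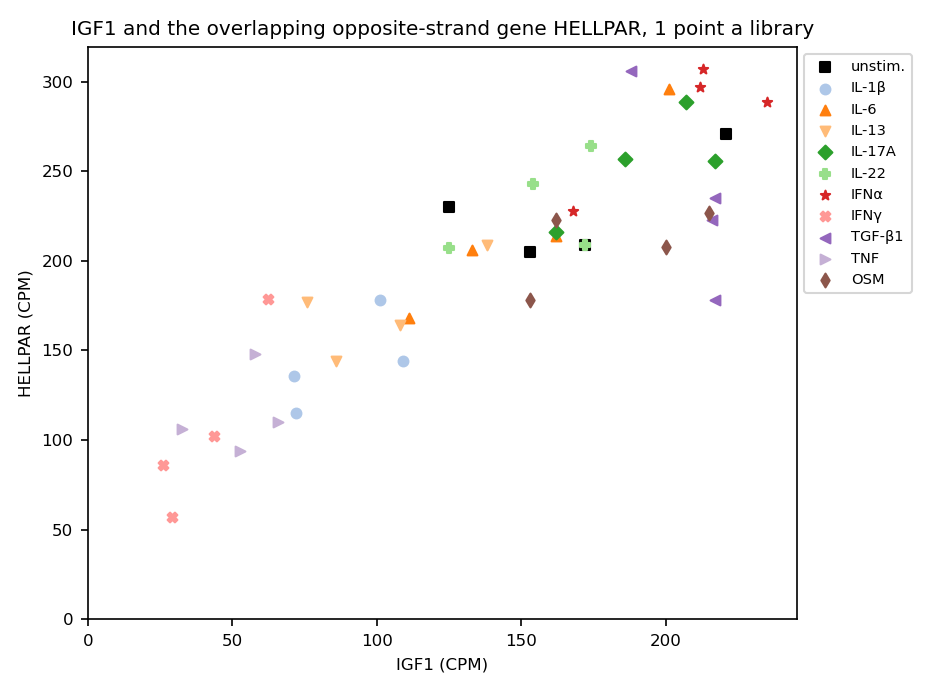
CPM of IGF1 (horizontal axis) and of the overlapping opposite-strand gene HELLPAR (vertical axis), 1 point a library, with shape and colour for the group. The IFNγ, TNF and IL-1β libraries lie at the lower left, with IGF1 at or below 109 CPM and HELLPAR at or below 179 CPM, and some IL-13 libraries lie among them.

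IGF2, the gene of the fetal and tissue growth factor IGF-II, lies on the minus strand of chromosome 11 (2129112 to 2158391) and was the scarcest tested member. It stood at 18.1, 15.3, 14.8 and 21.2 CPM in unstimulated cells, from 21 to 37 counts a library, and no cytokine was called. The highest group was IL-1β (37.3, 17.9, 42.6 and 27.9 CPM, log2 fold change 0.85 ± 0.37 SE, edgeR adjusted p = 0.194), which overlapped the unstimulated libraries. The lowest was TGF-β1 at 10.1, 10.6, 7.26 and 7.34 CPM, all below the unstimulated libraries (log2 fold change -0.97 ± 0.4 SE, edgeR adjusted p = 0.158). Groups next to each other in the order did not differ past the threshold.

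Part of IGF2 also overlaps other annotated genes, among them INS-IGF2, at 0 in all libraries, and the protein-coding gene ENSG00000284779, which covers 38.4% of its main transcript on the same strand. Per kb, IGF1 made up 88.0 ± 1.21% of the summed IGF1 and IGF2 level in unstimulated cells. That share was 64.7 ± 10.8% with IFNγ, 64.8 ± 14.5% with TNF and 68.1 ± 10.8% with IL-1β, and 94.8 ± 0.833% with TGF-β1. By these counts IGF1 stayed the more abundant of the pair in every group.

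IGFBP3, the main carrier of IGFs in serum and a known TGF-β1 response gene, was called with 7 of the 10 cytokines. It lies on the minus strand of chromosome 7 (45912245 to 45921874), 18584 bases from IGFBP1. The 250 bases before its RefSeq start (GRCh38.p14, chr7:45921273-45921522, minus strand) are shown for the letters in capitals, TATATA, which vary from the usual box of that name and begin 30 bases before the start.
IGFBP3: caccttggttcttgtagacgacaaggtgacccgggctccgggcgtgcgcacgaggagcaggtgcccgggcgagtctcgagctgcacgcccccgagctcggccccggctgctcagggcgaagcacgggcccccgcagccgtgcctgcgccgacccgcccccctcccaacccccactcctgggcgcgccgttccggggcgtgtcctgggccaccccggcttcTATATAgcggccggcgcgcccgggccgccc

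IGFBP3 stood at 394, 353, 323 and 354 CPM in unstimulated cells (356 ± 29.2), a narrow range. With IL-13 it was at 125, 134, 108 and 85.2 CPM, all far below. This was the largest fall of IGFBP3 (3.15-fold, log2 fold change -1.65 ± 0.23 SE, edgeR adjusted p = 1.92e-06).

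IFNγ gave 182, 190, 141 and 112 CPM of IGFBP3 (log2 fold change -1.19 ± 0.22 SE, edgeR adjusted p = 0.000171). IL-17A gave 177, 172, 164 and 163 CPM, the tightest group (log2 fold change -1.08 ± 0.22 SE, edgeR adjusted p = 0.0042). IL-1β gave 205, 215, 149 and 121 CPM (log2 fold change -1.05 ± 0.22 SE, edgeR adjusted p = 0.000918). In each of these groups all 4 libraries lay below the unstimulated ones, and the mean was at most 172 CPM.

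OSM and TNF lowered IGFBP3 less. The OSM libraries were at 178, 184, 219 and 256 CPM (log2 fold change -0.77 ± 0.22 SE, edgeR adjusted p = 0.034) and the TNF libraries at 292, 197, 205 and 149 CPM (-0.76 ± 0.22 SE, adjusted p = 0.0167), without overlap with unstimulated cells. Leaving out any 1 of 7 of the 8 libraries ended the OSM call (adjusted p up to 0.16), and leaving out TNF replicate 2, 3 or 4 ended the TNF call (up to 0.101). The IL-22 libraries, at 309, 182, 188 and 274 CPM, were also all below the unstimulated ones, with a difference that was not called (log2 fold change -0.57 ± 0.22 SE, edgeR adjusted p = 0.298).

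TGF-β1 was the only cytokine of the 10 with a called rise of IGFBP3. Its libraries were at 838, 724, 437 and 452 CPM (613 ± 200), all above the unstimulated ones, with replicates 1 and 2 well above replicates 3 and 4. The rise was 1.72-fold (log2 fold change 0.78 ± 0.22 SE, edgeR adjusted p = 0.0224). It was not called without TGF-β1 replicate 1 (0.61, adjusted p = 0.139) or replicate 2 (0.7, 0.078), without unstimulated replicate 2 (0.0587) or 4 (0.0507), or in a fit of the 8 libraries alone (0.0812), and without both TGF-β1 replicates 1 and 2 it was 0.32 (0.633). TGF-β1 and unstimulated cells were the sole neighbours in the order of IGFBP3 levels that differed past the threshold.

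IGFBP5, a binding protein known to attach to extracellular matrix and to be abundant in mesenchymal cells, was the most abundant member of unstimulated cells per kb. It lies on the minus strand of chromosome 2 (216672105 to 216695549), 7668 bases from IGFBP2, with a main transcript of 6239 bases. Its window of 250 bases (GRCh38.p14, chr2:216695550-216695799, minus strand) is shown because IGFBP5 had the largest fall of a binding protein, and holds none of the motifs searched.
IGFBP5: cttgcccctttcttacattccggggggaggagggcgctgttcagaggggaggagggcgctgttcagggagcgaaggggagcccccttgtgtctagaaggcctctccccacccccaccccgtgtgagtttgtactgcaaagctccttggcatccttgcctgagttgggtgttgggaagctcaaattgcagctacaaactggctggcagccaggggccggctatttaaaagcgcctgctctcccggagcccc

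Unstimulated cells held 1610, 2160, 3030 and 2600 CPM of IGFBP5 (2350 ± 609). TNF gave 592, 754, 599 and 664 CPM (652 ± 75.4), the lowest of all groups and far below the lowest unstimulated library. IGFBP5 was 3.6-fold lower with TNF (log2 fold change -1.85 ± 0.22 SE, edgeR adjusted p = 2.78e-08). TNF also lay below IL-13, the next group in the order, without overlap (log2 difference 0.79 ± 0.22 SE, edgeR adjusted p = 0.00704, beside 17.1% of all tested genes called), the sole neighbours in the IGFBP5 order that differed past the threshold.

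IL-13 gave 1270, 1290, 937 and 1020 CPM of IGFBP5 (log2 fold change -1.06 ± 0.22 SE, edgeR adjusted p = 0.00147). IFNα gave 1010, 1110, 1120 and 1320 CPM (log2 fold change -1.04 ± 0.22 SE, edgeR adjusted p = 0.000456). IL-1β gave 1370, 1530, 1160 and 1110 CPM (log2 fold change -0.86 ± 0.22 SE, edgeR adjusted p = 0.00589). The highest of these libraries, 1530 CPM, lay just below the lowest unstimulated one at 1610 CPM.

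IFNγ gave 2010, 3040, 2050 and 1960 CPM of IGFBP5, which overlapped the unstimulated libraries, with 1 just above the highest of them, and was not called (log2 fold change -0.05 ± 0.21 SE, edgeR adjusted p = 0.916). TGF-β1 libraries were spread from 956 and 1050 CPM in replicates 1 and 2 to 1830 and 2630 CPM in replicates 3 and 4, and were not called (log2 fold change -0.54 ± 0.21 SE, edgeR adjusted p = 0.138), but were without replicate 4 (-0.85, adjusted p = 0.00579). The replicates with the most IGFBP3 were thus those with the least IGFBP5. OSM, at 1330, 1700, 1600 and 1780 CPM, was not called either (-0.55 ± 0.21 SE, adjusted p = 0.169), and IL-17A had the highest mean (2840 ± 382 CPM).

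IGFBP4, a small binding protein and the main substrate of pappalysin-1, was the member with called rises and no called fall. It lies on the plus strand of chromosome 17 (40443450 to 40457725). Its window (GRCh38.p14, chr17:40443200-40443449, plus strand) is printed for its TATA box TATAAA, in capitals, which begins 29 bases before the start.
IGFBP4: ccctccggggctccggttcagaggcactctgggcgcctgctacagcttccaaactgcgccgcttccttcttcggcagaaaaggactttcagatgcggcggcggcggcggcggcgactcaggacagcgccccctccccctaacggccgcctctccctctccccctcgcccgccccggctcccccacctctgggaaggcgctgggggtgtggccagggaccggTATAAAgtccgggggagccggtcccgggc

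IGFBP4 stood at 145, 86.8, 73.2 and 109 CPM in unstimulated cells (104 ± 31.6). OSM gave 220, 225, 195 and 205 CPM (211 ± 13.9), all above the highest unstimulated library. The level was 2.03-fold higher (log2 fold change 1.02 ± 0.23 SE, edgeR adjusted p = 0.00314).

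IFNα gave 217, 204, 192 and 165 CPM of IGFBP4 (log2 fold change 0.9 ± 0.23 SE, edgeR adjusted p = 0.00448). IL-17A gave 166, 179, 240 and 166 CPM (0.85 ± 0.23 SE, edgeR adjusted p = 0.0381). Both groups lay wholly above the unstimulated libraries, but the IL-17A call was lost when any 1 of 6 of the 8 libraries was left out (adjusted p up to 0.174) and in a fit of the 8 libraries alone (0.0882). IFNγ (154, 111, 177 and 180 CPM) and IL-1β (161, 203, 132 and 118 CPM) overlapped unstimulated replicate 1 and were not called (0.58 and 0.56, edgeR adjusted p = 0.0934 and 0.149), while without that library they were (0.79 and 0.77, adjusted p = 0.0236 and 0.0406). IL-13 had the lowest mean of IGFBP4 (83.8 ± 19.6 CPM), and no neighbours in the order differed past the threshold.

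IGFBP7, also known as IGFBP-rP1 and secreted into the matrix, lies on the minus strand of chromosome 4 (57030773 to 57110385) and varied 1.96-fold between the highest and lowest group mean, beside 1.98-fold for IGFBP6 and more for the other tested members. It stood at 148, 180, 208 and 190 CPM in unstimulated cells. The highest group, TNF, was at 286, 393, 203 and 177 CPM, overlapped these and just missed the threshold (log2 fold change 0.54 ± 0.19 SE, edgeR adjusted p = 0.0558), which it passed with DESeq2 (adjusted p = 0.0316). IL-1β (247, 250, 223 and 209 CPM) and TGF-β1 (221, 240, 230 and 263 CPM) lay wholly above the unstimulated libraries without being called (0.36 and 0.4, edgeR adjusted p = 0.352 and 0.246). IL-13 was lowest at 151, 149, 128 and 113 CPM (-0.42 ± 0.19 SE, adjusted p = 0.258). Opposite-strand exons of POLR2B, a ubiquitous subunit of RNA polymerase, cover 18.2% of its main transcript.

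IGFBP6, which prefers IGF-II to IGF-I, lies on the plus strand of chromosome 12 (53097436 to 53102345). In unstimulated cells it stood at 89.6, 30.6, 40.1 and 24.6 CPM, with replicate 1 far above the other 3. Group means ran from 23.8 ± 6.18 CPM with IL-1β to 47.1 ± 11 CPM with IFNα, and no comparison was called. The largest differences were -0.97 ± 0.41 SE with IL-1β and -0.81 ± 0.41 SE with IL-17A on the log2 scale (edgeR adjusted p = 0.172 and 0.403), and without unstimulated replicate 1 they were -0.42 and -0.25 (adjusted p = 0.707 and 0.906). With this spread, differences of about that size were not detectable.

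IGFBP2 and IGFBP1 were close to the limit of counting, each beside an abundant neighbour on its chromosome. IGFBP2 (chromosome 2, 216632828 to 216664436, plus strand) had counts in 26 of 44 libraries and 10 counts at most. It stood at 0, 0, 0.704 and 0 CPM in unstimulated cells and at 5.27, 2.49, 6.94 and 2.14 CPM with IFNγ, the sole group in which all 4 libraries held at least 3 counts. In the fit of all genes with any count this difference was not called (edgeR adjusted p = 0.0863). IGFBP1 (chromosome 7, 45888360 to 45893660, plus strand), best known from liver and decidua, had counts in 5 of 44 libraries and 4 at most, with 0 in all unstimulated ones.

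**Figure D4:**
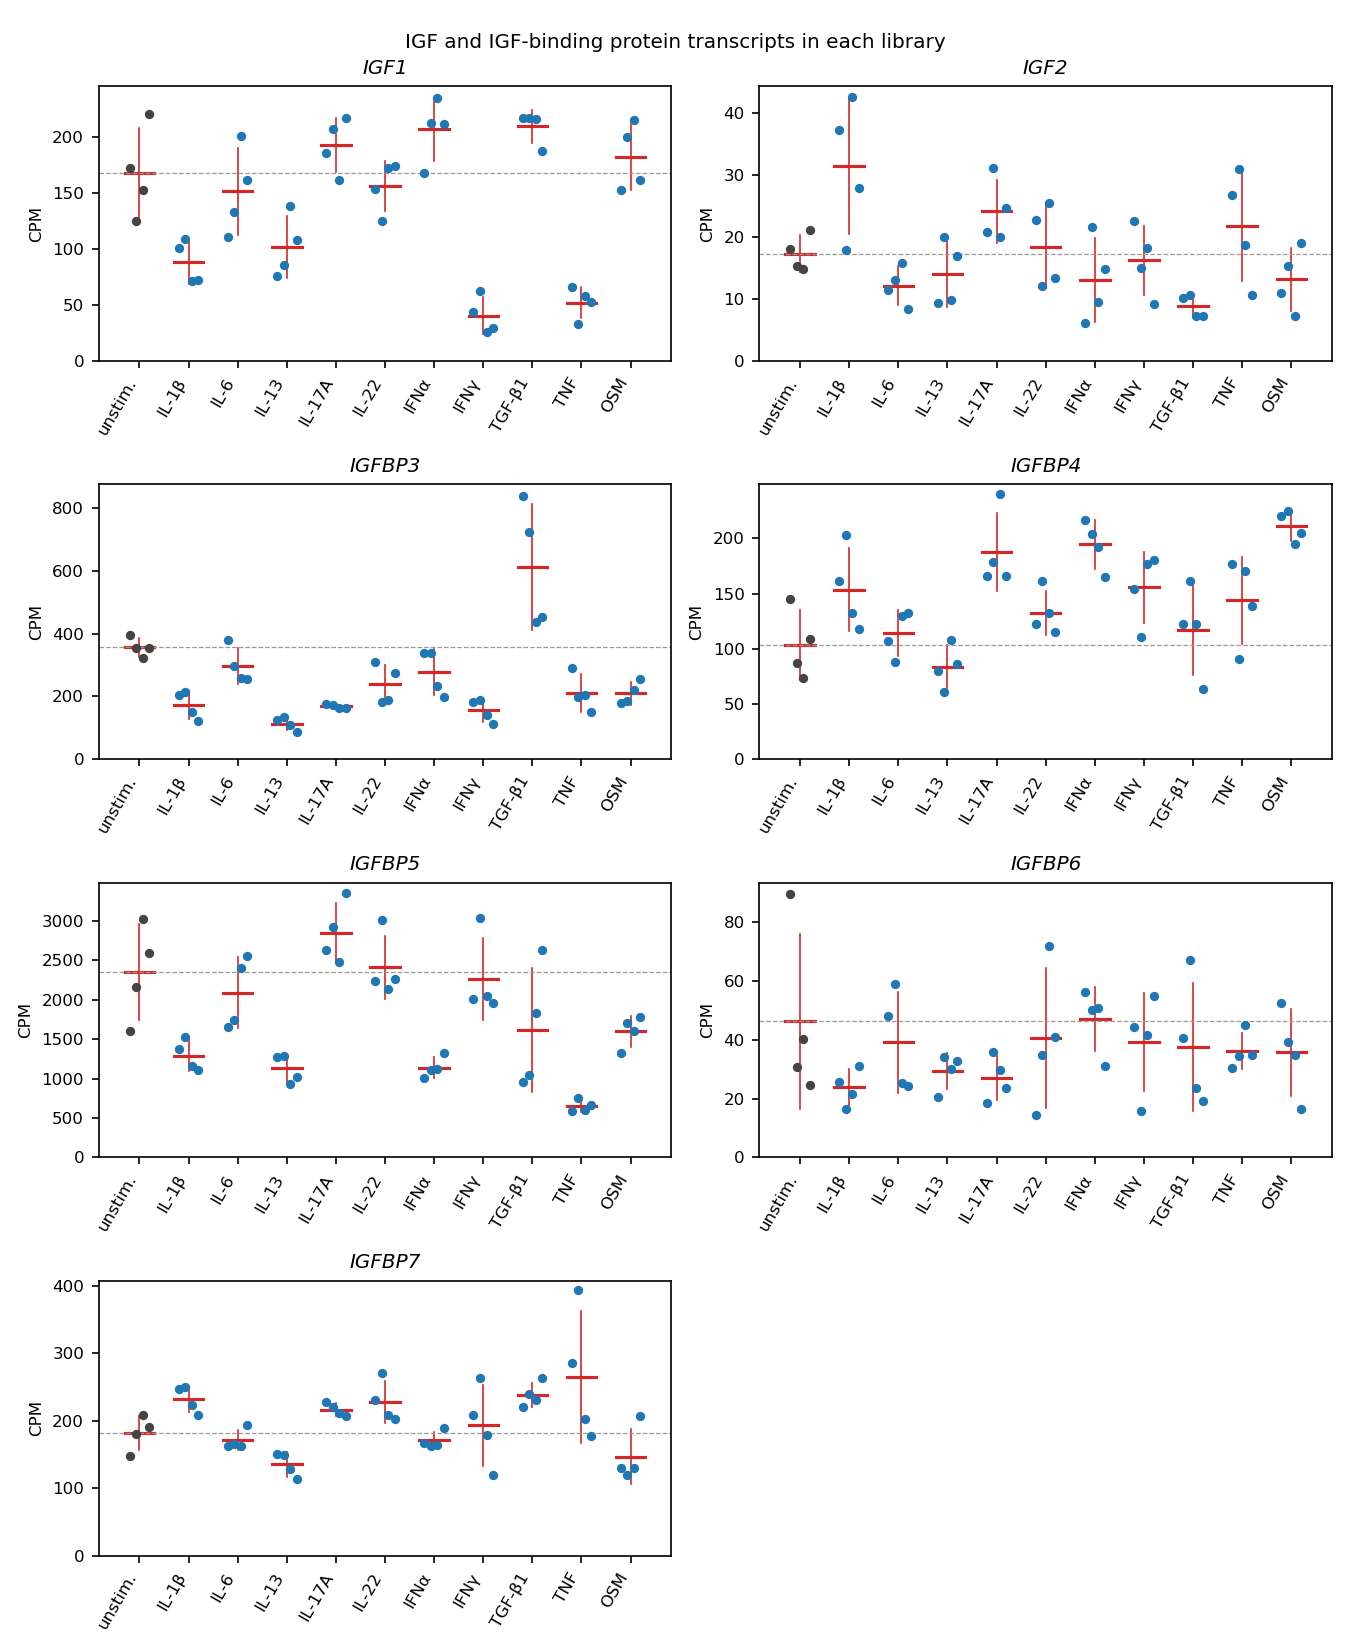
CPM of the 7 tested members in every library (points) by group, with the group mean (red bar), SD (red line, n = 4) and the unstimulated mean (dashed line). IGF1 is lowest with IFNγ and TNF, the TGF-β1 libraries are the only ones above the unstimulated range of IGFBP3, and IGFBP5 is lowest with TNF.

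Promoter windows of 250 bases were found for 6 members (9 windows), and were searched on both strands for 8 short motifs. TATAAA, in the IGFBP4 window, is in 10.7% of the 35116 windows of the same length, and TATATA, in the IGFBP3 window, in 3.73%. The GC box GGGCGG was in the windows of IGFBP2, IGFBP3, IGFBP4 and IGFBP6 and is in 42.6% of all windows. The GAS element TTCNNNGAA (6.57% of all windows), the interferon element of GAAA repeated after 2 free bases (3.02%), the kappa B form of GGGA and TTCC with 2 free bases between (1.4%), the AP-1 form TGANTCA (6.57%) and the SMAD form CAGACA (13.6%) were in none of the 9, which says only that these letters are not in these windows.

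Across the 11 group means of log2 CPM, the gene most like IGF1 of 7113 compared was the overlapping HELLPAR (Pearson r = 0.978), followed by TSPAN2 (0.953) and SNCAIP (0.92). The genes most like IGFBP3 were NUAK1 (0.902), MSANTD3-TMEFF1 (0.896) and NOX4 (0.882), and those most like IGFBP4 were CD2BP2 (0.936), MAP3K5 (0.919) and SUPT7L (0.879). For IGFBP5 they were ANAPC7 (0.899), TP53INP1 (0.869) and CMBL (0.868), and for IGFBP7 MIR4458HG (0.948), SYT11 (0.945) and KCNMA1 (0.935). IGF2 was most like SIK2 (0.947), PNRC1 (0.901) and PIM2 (0.895), and IGFBP6 most like PAMR1 (0.926), WNT5B (0.889) and EVA1A (0.883). Among the members themselves r ran from -0.56 (IGF2 with IGFBP6) to 0.54 (IGF1 with IGFBP3), over the same 11 means.

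Around the members, 36 other genes of the pathway were listed, of which 23 were tested. Over the 230 pairs with a cytokine, 7 were called higher and 12 lower, on 10 genes. This was 8.26% of the pairs, not far from the 5.45% over all tested genes. The group of IGFBP proteases and their inhibitors held 12 of these 19 calls, from 50 pairs on 5 tested genes. Receptors and adaptors had 2 higher and 2 lower of 70 pairs, and intracellular signalling 0 higher and 3 lower of 80. These parts were not tested against each other. PAPPA, the pappalysin that cuts IGFBP4 and IGFBP5, stood at 177, 198, 221 and 250 CPM in unstimulated cells. It was at 711, 770, 597 and 566 CPM with IL-1β, all far above (log2 fold change 1.64 ± 0.27 SE, edgeR adjusted p = 2.41e-05), and at 57.1, 23.9, 76.8 and 96.8 CPM with IL-13, all below (-1.73 ± 0.29 SE, adjusted p = 5.89e-05). With IL-17A and OSM all PAPPA libraries also lay above the unstimulated ones, without a call (0.9 and 0.8, edgeR adjusted p = 0.0829 and 0.0861).

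STC1, an inhibitor of pappalysins, was split among the unstimulated libraries, at 337 and 557 CPM in replicates 1 and 2 and 4260 and 3360 CPM in replicates 3 and 4. IL-1β gave 9610, 11100, 15500 and 14800 CPM, all above (log2 fold change 2.58 ± 0.68 SE, edgeR adjusted p = 0.00946). STC1 was also called higher with TNF and IFNγ, just past the threshold (1.98 and 1.97, both ± 0.66 SE, edgeR adjusted p = 0.0424 and 0.0472). The lowest libraries, 4750 CPM with TNF and 4810 CPM with IFNγ, lay close to the highest unstimulated one at 4260 CPM. Whether calls on single pathway genes hold without 1 library was not examined. IL-13 gave 79.7, 40.9, 100 and 140 CPM, a 23.6-fold lower level (-4.56 ± 0.76 SE, adjusted p = 5.89e-05). With IL-13 the protease PAPPA, its inhibitor STC1 and the binding proteins IGFBP3 and IGFBP5 were thus all lower, and with IL-1β PAPPA and STC1 were higher while IGF1, IGFBP3 and IGFBP5 were lower.

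STC2, the other stanniocalcin, was lower with IFNγ (25.6, 10.8, 19.1 and 24.2 CPM against 79.3, 67.8, 42.2 and 29.4, log2 fold change -1.45 ± 0.37 SE, edgeR adjusted p = 0.00649) and with TGF-β1 (-1.33 ± 0.37 SE, adjusted p = 0.0233), where 1 library overlapped. HTRA1, a serine protease known to cut IGFBP5 among other substrates, was at 47.0, 53.2, 99.9 and 64.2 CPM in unstimulated cells. It was lower with TNF (34.6, 14.6, 24.8 and 23.0 CPM, log2 fold change -1.43 ± 0.29 SE, edgeR adjusted p = 0.000479), IFNα (-1.26 ± 0.29 SE, 0.00182) and IL-1β (-0.97 ± 0.28 SE, 0.0238), where 1 library overlapped. ADAM12, a metalloprotease that cuts IGFBP3 and IGFBP5, was called higher with TGF-β1 (99.0, 110, 60.8 and 39.6 CPM against 16.6, 17.5, 9.85 and 21.2, log2 fold change 2.23 ± 0.41 SE, edgeR adjusted p = 0.00025), and again highest in TGF-β1 replicates 1 and 2. With OSM, IL-1β and TNF all ADAM12 libraries also lay above the unstimulated ones, without a call (log2 fold change 1.31, 1.18 and 1.13, edgeR adjusted p = 0.0546, 0.0646 and 0.0607), and the differences from TGF-β1 were not tested.

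**Figure D5:**
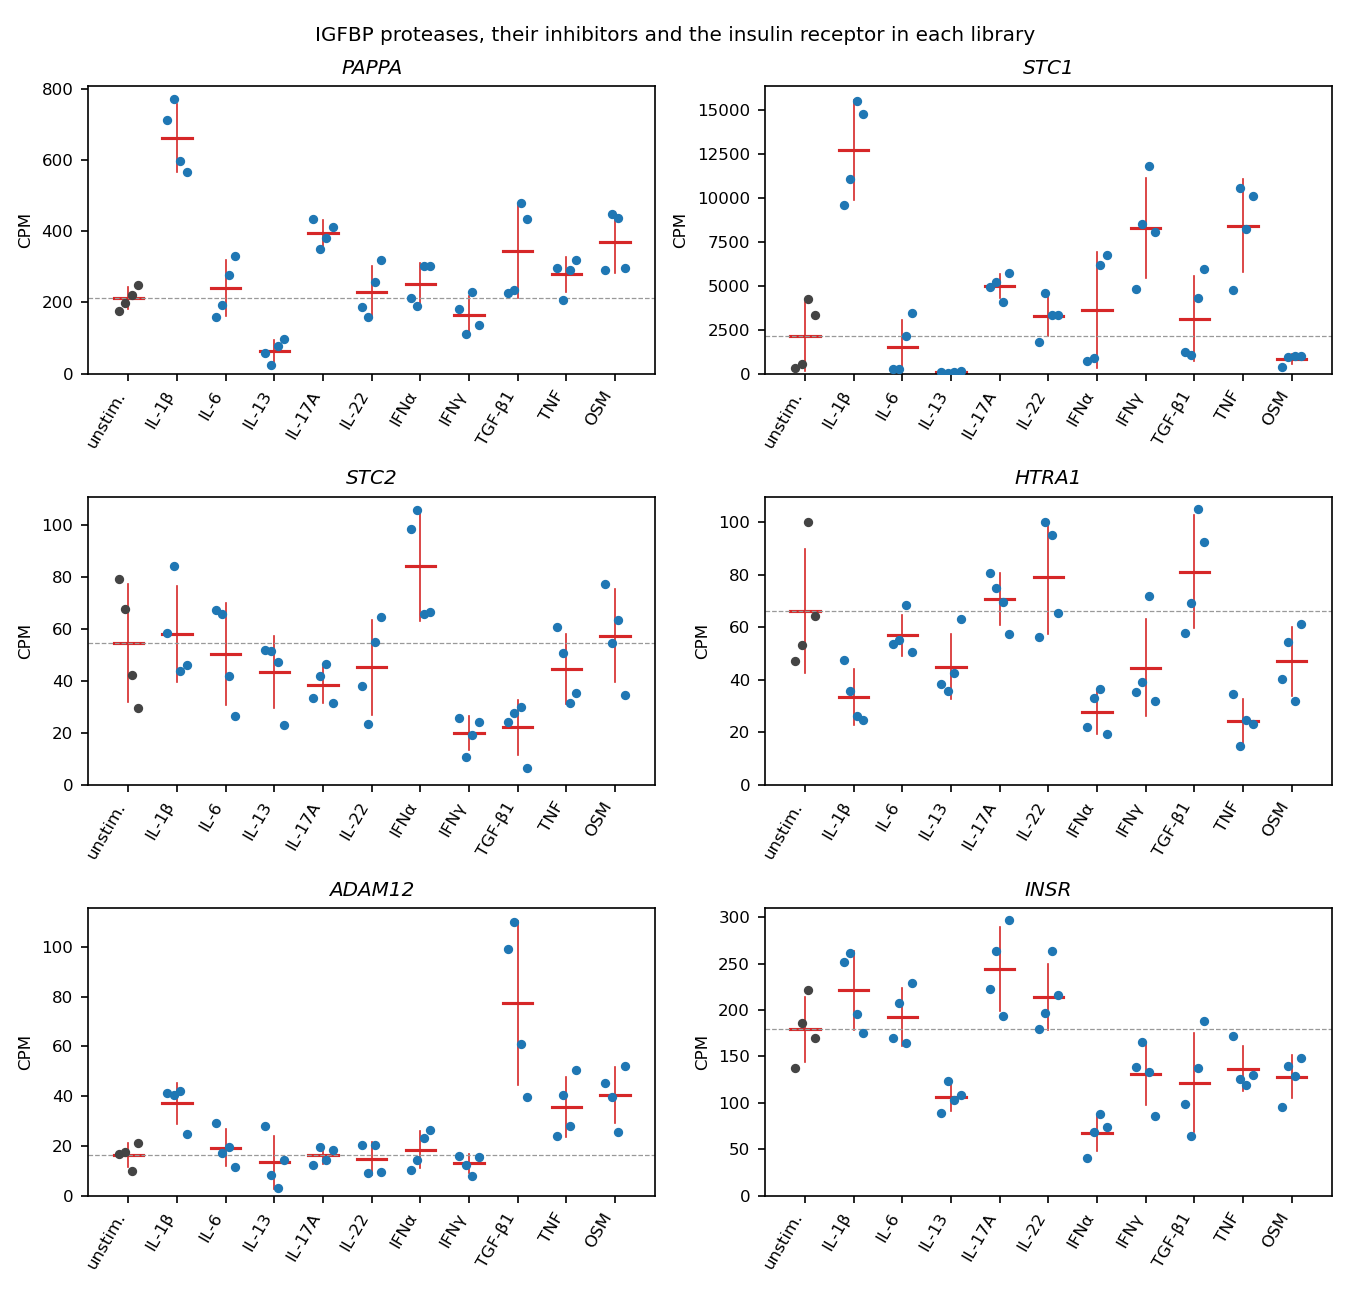
CPM of the 5 tested IGFBP proteases and inhibitors and of the insulin receptor INSR in every library (points) by group, with the group mean (red bar), SD (red line, n = 4) and the unstimulated mean (dashed line). PAPPA and STC1 are highest with IL-1β and lowest with IL-13, and ADAM12 is highest with TGF-β1.

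Among receptors and adaptors, IGF1R, the receptor of both growth factors, had 3 counts at most in any library and was not tested. INSR, the insulin receptor, which also binds IGF-II, stood at 138, 186, 222 and 170 CPM in unstimulated cells and at 40.8, 68.5, 88.2 and 73.5 CPM with IFNα, all below (log2 fold change -1.41 ± 0.24 SE, edgeR adjusted p = 1.92e-05). With IL-13 all INSR libraries also lay below the unstimulated ones, without a call (-0.75 ± 0.23 SE, edgeR adjusted p = 0.0518). The adaptor IRS2 was lower with IL-13 (5.31, 1.54, 1.15 and 0.888 CPM against 6.86, 6.56, 10.6 and 19.8, log2 fold change -2.22 ± 0.67 SE, edgeR adjusted p = 0.0456), at low counts. GRB14, an adaptor that inhibits insulin receptor signalling, was at 0 in all unstimulated libraries, at 5.05, 5.3, 12.7 and 15.6 CPM with IL-1β and at 9.18, 20.7, 5.25 and 10.2 CPM with TNF. Against 3 counts a library this was at least 4.94-fold and 5.79-fold higher (edgeR adjusted p = 0.00247 and 0.00136).

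In the intracellular part of the pathway, FOXO3, a transcription factor held in the cytoplasm by IGF signalling, was at 49.9, 66.3, 46.4 and 40.3 CPM in unstimulated cells and at 24.0, 23.3, 22.5 and 22.0 CPM with TNF (log2 fold change -1.14 ± 0.22 SE, edgeR adjusted p = 0.00027). It was lower with IFNγ too (-0.75 ± 0.22 SE, edgeR adjusted p = 0.0206), where replicate 2, at 49.0 CPM, overlapped the unstimulated libraries. FOXO3 has a near-identical copy elsewhere in the genome (FOXO3B), so its counts are uncertain. No call was made on the 3 IGF2 mRNA-binding proteins, and IGFALS, the acid-labile subunit that joins IGFBP3 complexes in serum, H19 and IGFBPL1 were at 0 in all libraries.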

How the data were processed

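Bulk RNA-seq of 44 Ccd-18Co libraries was analysed. RNA was isolated with 1 of 2 named kits (which sample had which is not stated) and sequenced after NEBNext Ultra II library preparation. Per the submitters' processing notes, the reads were checked with FastQC (version 0.11.9) and MultiQC (version 1.14) and quantified with kallisto (version 0.48.0), and the build hg38 is named. The authors deposited estimated counts per gene symbol, not scaled for depth, of which 5.77% are not whole. Which transcriptome release was used, how transcripts were joined into symbols and whether strand was used are not given in the sources used here. Totals of 742173 to 2213424 limit the precision of low genes.

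Estimated counts were rounded to whole numbers, filtered with edgeR's filterByExpr (version 4.0.16, R version 4.3.3), scaled with edgeR's TMM factors, and fitted for all 44 libraries in 1 quasi-likelihood model with a coefficient per group. All groups thus share 1 estimate of spread (common biological coefficient of variation 0.331). P-values were adjusted by Benjamini-Hochberg over 9513 genes within each comparison. SE is the log2 fold change over the square root of the F statistic. The study's threshold of 1.5 on the log2 fold change was treated as an alternative. No pair of replicates held identical values. The limit of 3 counts is one of counting error: with no molecular identifiers, several reads may come from 1 molecule.

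The members, the pathway and marker lists and the tests were chosen with earlier results of these data known. Named were all 9 members, pathway genes called at least once (1 result among them is not reported here), and for each tested member the 3 genes of highest Pearson r over the 11 group means (log2 CPM, prior count 2, mean of at least 3). Gene positions and lengths are from GENCODE release 44 (99.23% of symbols matched). Promoter windows are from RefSeq, which gave entries for IGF1, IGFBP2, IGFBP3, IGFBP4, IGFBP5 and IGFBP6. IGF2, IGFBP1 and IGFBP7 were not matched. Code was tested on simulated data. Alternatives were DESeq2 (version 1.42.0) size factors and Wald test, other filters and fold thresholds, only the libraries compared, a replicate block and leaving out each library. Added after seeing the data were the sum of IGF1 and HELLPAR counts, a fit without TGF-β1 replicates 1 and 2, and a block of replicates 1 and 2 against 3 and 4.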

Additional observations from a re-analysis of the deposited data

Results flagged for a closer look

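In each group of 4 libraries, the highest or lowest value of each tested member was checked for a gap from the other 3 that took up most of the range of the group. Of 77 groups, 6 had such a library, where chance gives about 1 in 20, or 3.85. IGF1 was at 188 CPM in TGF-β1 replicate 4, with the others at 216 to 217 CPM. IGFBP5 was at 3010 CPM in IL-22 replicate 2, with the others at 2140 to 2260 CPM. IGFBP5 was at 3040 CPM in IFNγ replicate 2, with the others at 1960 to 2050 CPM. IGFBP7 stood apart in replicate 4 of 3 groups, at 193 CPM with IL-6 (others 162 to 165 CPM), 189 CPM with IFNα (others 163 to 167 CPM) and 207 CPM with OSM (others 119 to 130 CPM). None of these 6 groups had a call for that member.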

How the results depend on the processing

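Of 1067 values of a member's log2 fold change under an alternative, 0 turned the direction of a call, 1029 stayed on their side of the threshold, 23 lost a call and 15 gained one. The losses fell on IGFBP3 with OSM, TGF-β1 and TNF and on IGFBP4 with IL-17A, and the other 13 calls held under every alternative that kept the adjusted p as the threshold. The gains were IGF1 with IL-13 (all genes with any count, DESeq2's test, both replicate blocks, 2 left-out libraries), IGFBP7 with TNF (DESeq2's size factors and test, 3 left-out libraries), and with left-out libraries alone IGFBP4 with IFNγ and IL-1β and IGFBP5 with TGF-β1. An absolute log2 fold change above 1 left 1 member called with IL-1β, 1 with IL-17A, 1 with IFNα, 1 with OSM, 2 of 3 with TNF and 0 with TGF-β1. Above 1.5, it left 1 with IL-13, 1 with IFNγ, 2 with TNF, 0 with each of IL-1β, IL-17A, IFNα, TGF-β1 and OSM, and 10 of the 19 calls on other pathway genes. The IGF1 calls among these, with IFNγ and with TNF, did not pass 1.5 with the HELLPAR counts added. In fits of only the libraries compared, 1 member was called with IL-17A, 0 with TGF-β1, and 1 pair of neighbouring groups in place of 2. All genes with any count gave 32 pathway calls in place of 19. Without TGF-β1 replicates 1 and 2 together, chosen after seeing the data, 0 members were called.

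Leaving out 1 library gave 3 to 4 members with IL-1β, 2 to 3 with IL-13 and with IFNγ, 1 to 2 with IL-17A and with OSM, 2 with IFNα, 0 to 2 with TGF-β1, 2 to 4 with TNF and 0 with IL-6 and IL-22. It gave 13 to 23 pathway calls and 1 to 3 neighbouring pairs. The IL-17A count was 1 without unstimulated or IL-17A replicate 2, 3 or 4. The OSM count was 1 without any unstimulated replicate or OSM replicate 1, 2 or 3. The TGF-β1 count and the neighbouring pairs fell by 1 without unstimulated replicate 2 or 4 or TGF-β1 replicate 1 or 2, and the TGF-β1 count was 2 without TGF-β1 replicate 4, with IGFBP5 added.

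Replicate numbers are shared by the groups. The libraries were not taken as paired, since no source ties a number to a shared culture or day. Not every pair correlated above 0.1, but paired libraries need not all do so, and this cannot decide the question. The mean correlation of deviations from group means was 0.024 for the same number and -0.008 for different numbers, 6 of 40 pairs with unstimulated libraries were above 0.1, and 22 of 44 libraries correlated best with their own number, more than an even draw among 4 numbers would give, which is a hint of pairing from the data and not from the design. With the replicate block, 3 members were called with IL-13 in place of 2, 23 pathway calls were made in place of 19, and no other member count moved. A block of replicates 1 and 2 against 3 and 4, chosen after seeing the data, also gave 3 with IL-13. At this depth, IGFBP1, IGFBP2 and IGF1R could not be compared.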

Other observations

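Replicates 1 and 2 stood apart from replicates 3 and 4 in some members, a split noticed in the values and marked by no label. IGFBP3 was higher in both of replicates 1 and 2 than in both of 3 and 4 in 7 of 11 groups and lower in 1. IGFBP7 was higher in 6 groups and lower in 1. STC1, the pappalysin inhibitor, was higher in 0 groups and lower in 7, and IGFBP5 was higher in 2 and lower in 4. IGF1 and IGFBP4 were each higher in 3 groups and lower in 3, IGFBP6 was higher in 3 and lower in 2, and IGF2 was higher in 2 and lower in 0. How often all tested genes split this way was not counted. Whether the split is particular to these genes therefore cannot be said. Each comparison holds all 4 replicate numbers on both sides.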
